A study of Rattus norvegicus with 12 samples.

Results

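Complement and microglial genes were followed in the hippocampus of bred High Responder (bHR) and bred Low Responder (bLR) rats, lines selected over generations for a strong or a weak locomotor response to an unfamiliar place. Whole hippocampus was taken from 6 bHR males and 6 bLR males, all of generation F15 and all at postnatal day 14, with no treatment named for either line, and the total RNA of each rat was hybridised to 1 Illumina RatRef-12 array, so n = 6 per line throughout. The genes were chosen by name, from a list of 37 symbols of complement components, complement receptors, complement regulators and microglial genes, and 29 of the 37 were found among the 22523 probes, with 1 probe each. They comprised 10 components, 3 receptors, 6 regulators and 10 microglial genes. No probe carried the symbols *C3*, *C4a*, *Masp1*, *C5ar1*, *C5r1*, *Csf1r* or *Fcer1g*, which were not analysed here, and *Cd55* was present under its older symbol *Daf1*. Of the 29 probes, 23 had a mean above the median log2 signal of all probes (6.66) in at least 1 line. The other 6, for *Masp2*, *C3ar1*, *Itgb2*, *Cfi*, *Daf1* and *Ptprc*, lay below it in both lines.

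Complement is a cascade of plasma and tissue proteins. The C1 complex (C1q with the proteases C1r and C1s) or the mannose-binding lectin proteases lead to cleavage of C4, C2 and C3. The alternative pathway leads to cleavage of C3 without C4 and C2. In the developing brain, C1q and C3 fragments tag synapses, and microglia take up tagged synapses through complement receptor 3, the dimer of Itgam and Itgb2. Microglia are the resident macrophages of the brain and make nearly all of its C1q, whereas astrocytes, vascular and meningeal cells also make other components and regulators.

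The arrays differed in brightness, and brightness was not balanced over the lines. Mean probe signal was 453 to 488 units on the 3 dimmest arrays, all of them bHR (replicates 27, 29 and 39), and 750 to 1038 units on the other 9, which held 3 bHR and 6 bLR rats. Values below are log2 signals after quantile normalisation over the 12 arrays, and each difference is bHR minus bLR. Because dim arrays and line overlap, differences of the 29 genes are also given for the 9 brighter arrays where their sign or call changes there. The array of bHR replicate 27 had the lowest mean correlation with the other arrays, 0.987. Markers of hippocampal neurons and of astrocytes were above the median signal for all 9 measured genes of each list. Whole tissue was measured, so fewer cells of a type and less RNA per cell cannot be told apart.

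None of the 29 genes passed the comparison of the lines. With limma, 0 of 29 had an adjusted p under 0.05 over all probes, where 0.0888% of the 22523 probes passed, and the adjusted p of the 29 ranged from 0.62 to 0.994. At an unadjusted p under 0.05 there were 3 of 29, against 6.02% of all probes. The 3 were *Cd59* and *C1s*, with higher values in bHR (3.2% of all probes were higher at that level), and *C1qc*, with lower values (2.81%). The lines overlapped for each of the 29 genes, while 0.391% of all probes had lines that did not overlap. The difference was below 0 for 21 of 29 genes and for 49.1% of all probes, with a median of -0.047 over the 29. On the 9 brighter arrays it was below 0 for 11 of 29 (49.2% of all probes), with a median of +0.037 and 0 genes at an unadjusted p under 0.05, against 5.72% of all probes there. With brightness as a block in the fit, 11 of 29 differences were below 0 and again 0 genes reached an unadjusted p under 0.05, against 4.88% of all probes. The balance of lower over higher values thus held for the 12 arrays and not for the 9 brighter ones. No gene passed an adjusted p of 0.05 in the other settings either, where the share of all probes that passed was 0.0755% on the 9 brighter arrays, 0.0266% with the brightness block, 0.107% without bHR replicate 27, 0.0266% after median centring and 0.0178% unscaled. Unadjusted p was under 0.05 for 3 of 29 genes without bHR replicate 27 (6.21% of all probes), 6 of 29 after median centring (24.3%) and 17 of 29 unscaled (43.8%), and each of the 6 and the 17 was lower in bHR. Of all probes, 53.2% were lower after median centring and 98.6% unscaled, so the direction of the 17 says nothing about these genes.

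**Figure D1:**
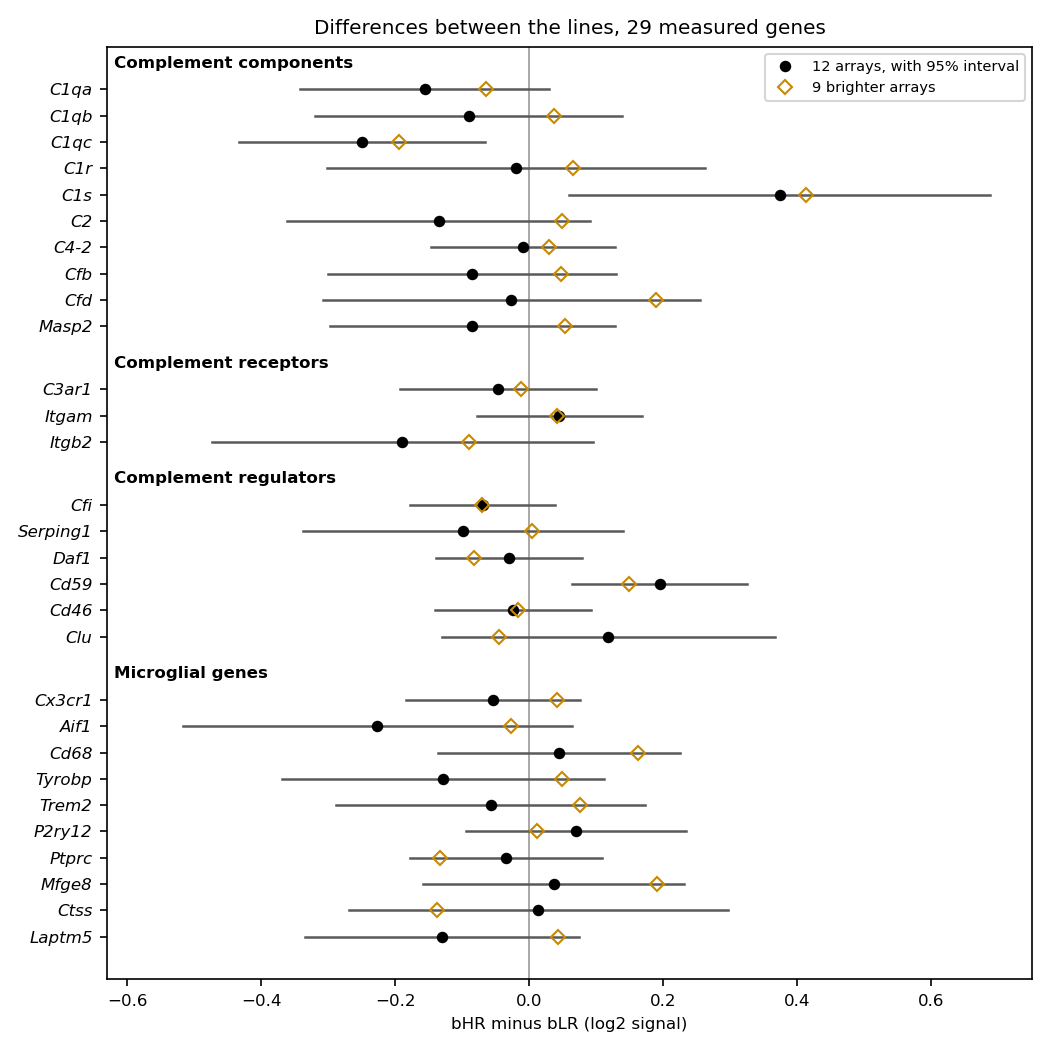
Differences between the lines (bHR minus bLR, log2 signal) for the 29 genes by role. Filled points are the estimates from 12 arrays with 95% intervals from limma, and open diamonds are the estimates from the 9 brighter arrays (3 bHR and 6 bLR). The interval leaves out 0 for *C1qc*, *C1s* and *Cd59*, before any adjustment for the number of probes, and the diamonds of all 10 components lie to the right of their filled points.

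The 3 chains of C1q, the recognition subunit that starts the classical pathway, all had lower means in bHR, by unequal amounts. *C1qc* read 8.37 (lowest), 8.68 (median) and 8.91 (highest) in bHR rats, against 8.72, 8.89 and 9.06 in bLR rats. Of the 6 bHR rats, 5 lay below the bLR median, and the lines overlapped between 8.72 and 8.91. The difference was -0.25 ± 0.09 (SE, n = 6 per line; 95% interval -0.43 to -0.07; limma adjusted p = 0.68; exact permutation p = 0.024, two-sided). *C1qa* read 8.66, 9.10 and 9.21 in bHR rats, against 9.06, 9.22 and 9.37 in bLR rats. All 6 bHR rats lay below the bLR median, 5 of them between 8.99 and 9.21, and the difference was -0.16 ± 0.09 (limma adjusted p = 0.84; exact permutation p = 0.13). *C1qb* read 10.06, 10.65 and 10.85 in bHR rats, against 10.54, 10.66 and 10.89 in bLR rats, with nearly equal medians and a difference of -0.09 ± 0.11 (limma adjusted p = 0.94).

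Much of the distance for *C1qa* and *C1qb* came from 1 rat. In bHR replicate 27 the 3 C1q genes had their lowest values of all 12 rats, 8.66 for *C1qa*, 10.06 for *C1qb* and 8.37 for *C1qc*. Without this rat the difference was -0.08 for *C1qa*, +0.01 for *C1qb* and -0.19 for *C1qc*. On the 9 brighter arrays it was -0.06, +0.04 and -0.19. Centring each array on its median in place of quantile normalisation gave -0.42, -0.40 and -0.49. Unscaled arrays, on which all probes together had a median of -0.22, gave -0.62, -0.60 and -0.69, so *C1qc* and *C1qa* kept their sign in each of these settings and *C1qb* did not. The ratio of 2 genes within a rat does not depend on a factor common to all probes of its array. It is still open to differences between arrays that change with the level of signal. Compared in this way, a choice made after the values were seen, *C1qc* relative to *C1qa* differed between the lines by -0.09 ± 0.06 (exact permutation p = 0.14), and *C1qc* relative to *C1qb* by -0.16 ± 0.09 (exact permutation p = 0.10). Both had an adjusted p of 0.14 over the 3 ratios compared, so the unequal differences of the chains did not pass.

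**Figure D2:**
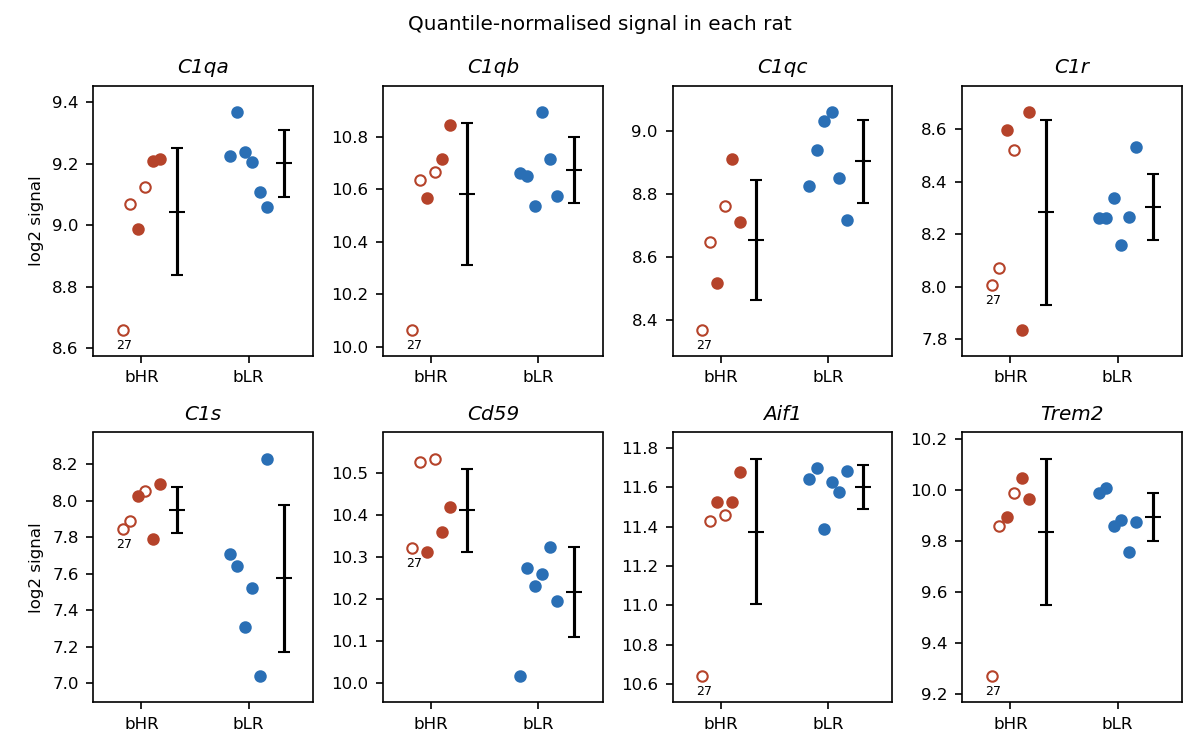
Quantile-normalised log2 signal of 8 genes in each rat, with bHR at the left and bLR at the right of each panel. Open circles are the 3 dim arrays, bars are the mean and SD of 6 rats, and 27 marks bHR replicate 27, which lies lowest for *C1qa*, *C1qb*, *C1qc*, *Aif1* and *Trem2*. For *C1s*, bLR rats spread from 7.04 to 8.23, around the narrow range of bHR rats.

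The proteases of the C1 complex, C1r, which activates C1s, and C1s, which cleaves C4 and C2, are encoded by neighbouring genes on chromosome 4 of the GRCr8 assembly, and their probes behaved differently. *C1s* read 7.79, 7.96 and 8.09 in bHR rats, against 7.04, 7.58 and 8.23 in bLR rats. All 6 bHR rats lay above the bLR median and above 5 of the 6 bLR rats, while bLR replicate 46 was the highest of the 12. The difference was +0.37 ± 0.15 (95% interval +0.06 to +0.69; limma adjusted p = 0.77; exact permutation p = 0.058), and it was +0.41 on the 9 brighter arrays, +0.20 after median centring and +0.004 unscaled. Leaving out 1 rat moved it between +0.26, without bLR replicate 42, and +0.50, without bLR replicate 46 (limma adjusted p = 0.91 and 0.19). Without bLR replicate 42 or bLR replicate 30 (+0.32) it no longer had an unadjusted p under 0.05. *C1r* read 7.84, 8.30 and 8.67 in bHR rats, against 8.16, 8.26 and 8.53 in bLR rats. The bHR rats fell into a lower trio (replicates 27, 29 and 41, at 7.84 to 8.07) and a higher trio (replicates 33, 39 and 47, at 8.52 to 8.67), on either side of 5 of the bLR rats, and the means differed by -0.02 ± 0.13 (limma adjusted p = 0.99; +0.065 on the 9 brighter arrays). Neither trio is 1 brightness class. *C1s* relative to *C1r* within a rat was -0.33 ± 0.23 in bHR and -0.73 ± 0.34 in bLR (SD, n = 6), a difference of +0.39 ± 0.17 (exact permutation p = 0.039, adjusted p = 0.12 over the 3 ratios), and it did not pass.

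Among the components that act after C1 or outside the classical pathway, none stood apart between the lines. *C2*, the serine protease of the classical C3 convertase, read 8.70, 9.15 and 9.54 in bHR rats, against 9.17, 9.25 and 9.39 in bLR rats, so bHR values ran past bLR values on both sides (difference -0.14 ± 0.11; limma adjusted p = 0.90). Its neighbour on chromosome 20, *Cfb*, which supplies the protease of the alternative convertase, differed by -0.09 ± 0.10, and *Cfd*, the protease that cleaves factor B, by -0.03 ± 0.13. On the 9 brighter arrays the 3 differences were +0.05 for *C2*, +0.05 for *Cfb* and +0.19 for *Cfd*. *C4-2* is an older name of *C4b*, one of 2 rat C4 genes, and whether its probe also binds *C4a* transcripts was not tested. It read 7.17, 7.27 and 7.42 in bHR rats, against 7.18, 7.26 and 7.50 in bLR rats, which is a difference of -0.01 ± 0.06 (95% interval -0.15 to +0.13; limma adjusted p = 0.99; +0.03 on the 9 brighter arrays). *Masp2*, the lectin-pathway protease, lay below the median signal (difference -0.09 ± 0.10; +0.05 on the 9 brighter arrays). Of the 10 components, 9 had lower and 1 had higher means in bHR, with a median of -0.085. The median was +0.048 on the 9 brighter arrays, so no direction can be given for the group.

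The 3 receptors were all weak signals. *Itgam*, the alpha chain of complement receptor 3, read 6.76, 6.84 and 7.02 in bHR rats, against 6.69, 6.83 and 6.92 in bLR rats, a difference of +0.04 ± 0.06 (limma adjusted p = 0.95). Its partner *Itgb2*, the beta chain shared by leukocyte integrins, read 6.20, 6.37 and 6.84 in bHR rats, against 6.30, 6.60 and 6.93 in bLR rats (difference -0.19 ± 0.13; limma adjusted p = 0.89). The 12 rats stood at 2 levels for *Itgb2*, with bHR replicate 47 and bLR replicates 26, 28 and 46 between 6.82 and 6.93 and the other 8 rats between 6.20 and 6.53. Both lines were on both levels. *C3ar1*, the receptor of the C3a fragment, read 6.36, 6.49 and 6.64 in bHR rats, against 6.36, 6.53 and 6.75 in bLR rats (difference -0.05 ± 0.07; limma adjusted p = 0.95).

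Of the regulators, *Cd59*, a membrane protein that blocks assembly of the membrane attack complex, came nearest to the threshold. It read 10.31, 10.39 and 10.53 in bHR rats, against 10.02, 10.25 and 10.32 in bLR rats. Each bHR rat lay above the bLR median, and the lines overlapped only where bLR replicate 42, at 10.32, passed bHR replicate 33, at 10.31, and bHR replicate 27, at 10.32. The difference was +0.19 ± 0.06 (1.14-fold; 95% interval +0.06 to +0.32; limma adjusted p = 0.62; exact permutation p = 0.0065, where the smallest p of such a test is 0.0022). It was +0.15 on the 9 brighter arrays and +0.21 without bHR replicate 27, but -0.12 after median centring and -0.32 unscaled. The direction of *Cd59* therefore depends on the scaling between arrays. Unscaled, 98.6% of all probes were lower in bHR, so the sign there says nothing about *Cd59*. The dim arrays, all bHR, also had a narrower spread of signal (ratio of a high to a low percentile 31 to 33, against 52 to 67). Median centring leaves that difference in place, and its part in the sign of *Cd59*, a bright probe, was not tested.

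The other membrane regulators, *Cd46*, a cofactor for cleavage of C3b and C4b, and *Daf1*, which speeds the decay of convertases, differed by -0.02 ± 0.05 and -0.03 ± 0.05. *Serping1*, the inhibitor of C1r and C1s, read 7.40, 7.67 and 8.02 in bHR rats, against 7.63, 7.66 and 8.16 in bLR rats, with nearly equal medians and a difference of -0.10 ± 0.11 (limma adjusted p = 0.94; +0.004 on the 9 brighter arrays). *Clu*, the secreted chaperone clusterin, which binds terminal complement complexes, was a bright probe that read 13.31, 13.73 and 13.90 in bHR rats, against 13.16, 13.62 and 13.79 in bLR rats (difference +0.12 ± 0.12; limma adjusted p = 0.93; -0.04 on the 9 brighter arrays). *Cfi*, the protease that cleaves C3b and C4b, differed by -0.07 ± 0.05 at a dim probe. The 6 regulators had a median of -0.027, with 4 lower and 2 higher.

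Other genes of the pathway were taken from a separate list, of which 23 of 32 were measured, 10 of them below the median signal in both lines. None passed over all probes. Unadjusted, 2 had p under 0.05 with higher values in bHR and 0 with lower ones, against 6.02% of all probes in either direction. Of the 23, 16 had higher means and 7 lower ones, where 49.1% of all probes were lower, and the median was +0.036. *Mbl1*, a mannose-binding lectin that starts the lectin pathway, had a probe near the median signal. Its difference was +0.19 ± 0.06 (limma adjusted p = 0.61), with +0.10 on the 9 brighter arrays and -0.03 without scaling. *Cr1l*, the rodent membrane regulator also known as Crry, differed by +0.17 ± 0.08 (limma adjusted p = 0.82), with +0.06 on the 9 brighter arrays and -0.16 after median centring. After median centring *Mbl1* kept its sign, at +0.17. *Cr1l* fell outside the naming rule and was chosen after its values were seen.

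None of the 10 microglial genes passed over all probes, and none reached an unadjusted p under 0.05. *Aif1*, which encodes the calcium-binding protein Iba1 used to stain microglia, read 10.64, 11.49 and 11.68 in bHR rats, against 11.39, 11.64 and 11.70 in bLR rats. Of the bHR rats, 5 lay below the bLR median, with bHR replicate 27 farthest below, and the difference was -0.23 ± 0.14 (95% interval -0.52 to +0.06; limma adjusted p = 0.86). Without that rat it was -0.08, and on the 9 brighter arrays -0.03. *Trem2*, a lipid-sensing receptor, read 9.27, 9.93 and 10.05 in bHR rats, against 9.75, 9.88 and 10.01 in bLR rats (difference -0.06 ± 0.11; limma adjusted p = 0.96). *Tyrobp*, the adaptor through which Trem2 signals, read 6.63, 7.11 and 7.41 in bHR rats, against 6.98, 7.30 and 7.39 in bLR rats (difference -0.13 ± 0.11; limma adjusted p = 0.92). For both genes the sign turned on the 9 brighter arrays, to +0.07 for *Trem2* and +0.05 for *Tyrobp*.

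For receptors of the resting microglial surface the lines overlapped as well. *P2ry12*, the ADP receptor that guides microglial processes, read 9.24, 9.44 and 9.49 in bHR rats, against 9.15, 9.33 and 9.61 in bLR rats. The bHR range lay inside the bLR range, and the difference was +0.07 ± 0.08 (95% interval -0.09 to +0.23; limma adjusted p = 0.94). *Cx3cr1*, the receptor of the neuronal chemokine fractalkine, read 6.69, 6.78 and 6.99 in bHR rats, against 6.78, 6.87 and 6.96 in bLR rats (difference -0.05 ± 0.06; 95% interval -0.18 to +0.08; limma adjusted p = 0.94; +0.04 on the 9 brighter arrays). *Ptprc*, the leukocyte phosphatase CD45, was dim and differed by -0.04 ± 0.07.

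Genes of lysosomes and of uptake gave intervals on both sides of 0. *Cd68*, a lysosomal membrane glycoprotein, read 6.96, 7.27 and 7.51 in bHR rats, against 7.07, 7.17 and 7.41 in bLR rats (difference +0.04 ± 0.08; limma adjusted p = 0.96). *Mfge8*, a secreted bridge between phosphatidylserine and integrins that astrocytes also make, read 11.95, 12.16 and 12.59 in bHR rats, against 12.06, 12.20 and 12.29 in bLR rats, with a difference of +0.04 ± 0.09 (95% interval -0.16 to +0.23; limma adjusted p = 0.97). On the 9 brighter arrays it was +0.19, and it was -0.29 after median centring. *Ctss*, the lysosomal protease cathepsin S, differed by +0.01 ± 0.13, and *Laptm5*, a lysosomal membrane protein of blood-derived lineages, by -0.13 ± 0.10. On the 9 brighter arrays these were -0.14 for *Ctss* and +0.04 for *Laptm5*. The 10 microglial genes had a median of -0.045, against +0.042 on the 9 brighter arrays.

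Of the 12 rats, bHR replicate 27 stood out in this list. It had the lowest value of the 12 for 12 of 29 genes, against 15.3% of all probes, and the highest for 0 of 29, against 18.2% of all probes. The 12 genes were *C1qa*, *C1qb*, *C1qc*, *C2*, *Cfb*, *Cfd*, *Itgb2*, *Serping1*, *Aif1*, *Cd68*, *Tyrobp* and *Trem2*. The distance to the next lowest rat was widest for *Aif1* (0.75), *Trem2* (0.49), *C1qb* (0.47) and *Cfd* (0.43), and it was 0.008 for *Itgb2*. Its median distance from the mean of the 12 rats was -0.42 for components and -0.19 for microglial genes, against +0.05 for regulators. At the other end, bHR replicate 47 had the highest value for 6 of 29 genes, against 12.3% of all probes. The bHR SD was above the bLR SD for 20 of 29 genes, with medians of 0.23 in bHR and 0.13 in bLR, a share near the 64.7% of all probes. Without bHR replicate 27 it was above for 11 of 29 genes, with medians of 0.13 in bHR and 0.13 in bLR, and for 12818 of the 22523 probes.

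The summed signal of other lists in bHR replicate 27 lay below, within or above that of the other 11 rats. Of 33 other microglial genes measured, 10 were lowest in this rat, and their sum was 37128 units there against 40175 to 50933 units in the others. The sum was also lowest for erythroid markers (5 of 8 measured; 20029 units against 28536 to 62766 units), for meningeal and fibroblast markers (9 of 10; 8482 units against 9338 to 14836 units) and, by little, for border macrophage markers (7 of 10; 1064 units against 1085 to 1690 units). For choroid plexus markers (10 of 10) it was 4541 units, close to the 4572 units of another rat, with the others up to 53556 units. It lay within the range of the others for other complement genes (23 of 32; 9839 units against 9221 to 10056 units) and for neutrophil and monocyte markers (11 of 12; 1073 units against 1047 to 1251 units). It was highest for hippocampal neuron markers (9 of 10; 30896 units against 19118 to 23165 units), astrocyte markers (9 of 10; 59850 units against 40381 to 55932 units), endothelial markers (7 of 10; 13661 units against 11812 to 13317 units) and ligand and uptake genes (23 of 24; 34148 units against 27211 to 33219 units). A sum is set mostly by the brightest probes. By mean log2 signal this rat was not highest for endothelial markers (9.22, bLR rats up to 9.27). Nor was it highest for ligand and uptake genes (7.89, bLR rats up to 7.98). It remained highest for neuron and astrocyte markers by that measure. It remained lowest for other microglial genes and for erythroid, meningeal, border macrophage and choroid plexus markers. The part of tissue makeup, array brightness or RNA quality in the low values of this rat was not tested.

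**Figure D3:**
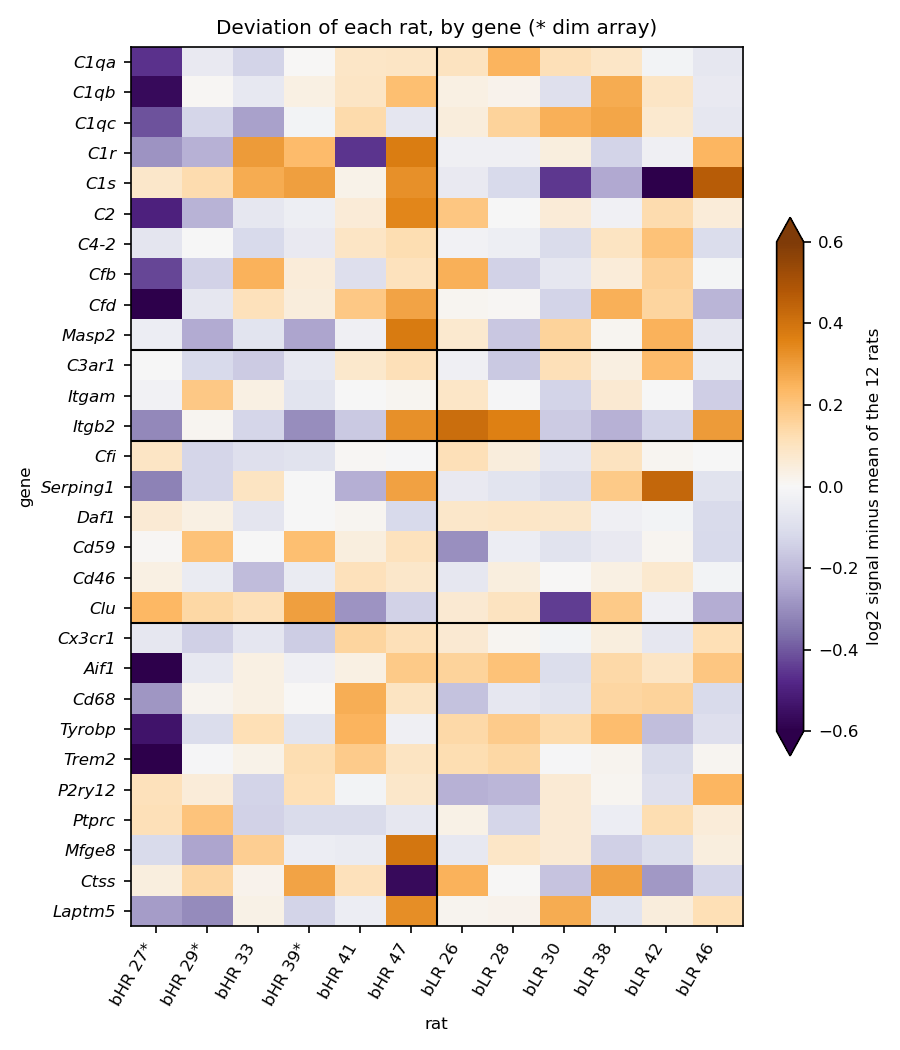
Log2 signal of each gene in each rat minus the mean of the 12 rats, with bHR rats at the left, bLR rats at the right and horizontal lines between components, receptors, regulators and microglial genes. Asterisks mark the 3 dim arrays. The column of bHR replicate 27 is low for C1q genes, *C2*, *Cfb*, *Cfd*, *Aif1*, *Tyrobp* and *Trem2* and not for the membrane regulators.

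Genes whose products form 1 complex were compared over the 12 rats after subtracting the mean of each line, in 6 pairs. The 3 C1q genes varied together, with Pearson r = 0.79 for *C1qa* and *C1qb* (permutation p = 0.0062, adjusted over the 6 pairs 0.012), 0.81 for *C1qa* and *C1qc* (permutation p = 0.00081, adjusted 0.0033) and 0.70 for *C1qb* and *C1qc* (permutation p = 0.0097, adjusted 0.015). Spearman's rho was 0.51 (permutation p = 0.094), 0.70 (permutation p = 0.015) and 0.62 (permutation p = 0.037), and none of these passed adjustment (0.11, 0.085 and 0.085). *Tyrobp* and *Trem2* gave r = 0.84 (permutation p = 0.0011, adjusted 0.0033) and rho = 0.60 (permutation p = 0.043, adjusted 0.085). These values rest partly on bHR replicate 27, which was among the 2 rats farthest from the median in each of the 4 pairs. Without the 2 farthest rats r was 0.31, 0.59 and 0.54 for the C1q pairs and 0.45 for *Tyrobp* and *Trem2*, and within the 9 brighter arrays it was 0.33, 0.69, 0.45 and 0.65. In both cases r was lower for each of the 4 pairs than over the 12 rats, and it was lowest for *C1qa* and *C1qb*.

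The 2 other pairs did not pass adjustment. *C1r* and *C1s* gave r = 0.48 (permutation p = 0.12, adjusted 0.14) and rho = 0.55 (permutation p = 0.067, adjusted 0.10), with r = 0.46 without the 2 farthest rats and 0.46 within the 9 brighter arrays. *Itgam* and *Itgb2*, both near the median signal, gave r = 0.21 (permutation p = 0.50, adjusted 0.50) and rho = 0.15 (permutation p = 0.63, adjusted 0.63). Without the 2 farthest rats r was 0.35, and within the 9 brighter arrays 0.04.

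**Figure D4:**
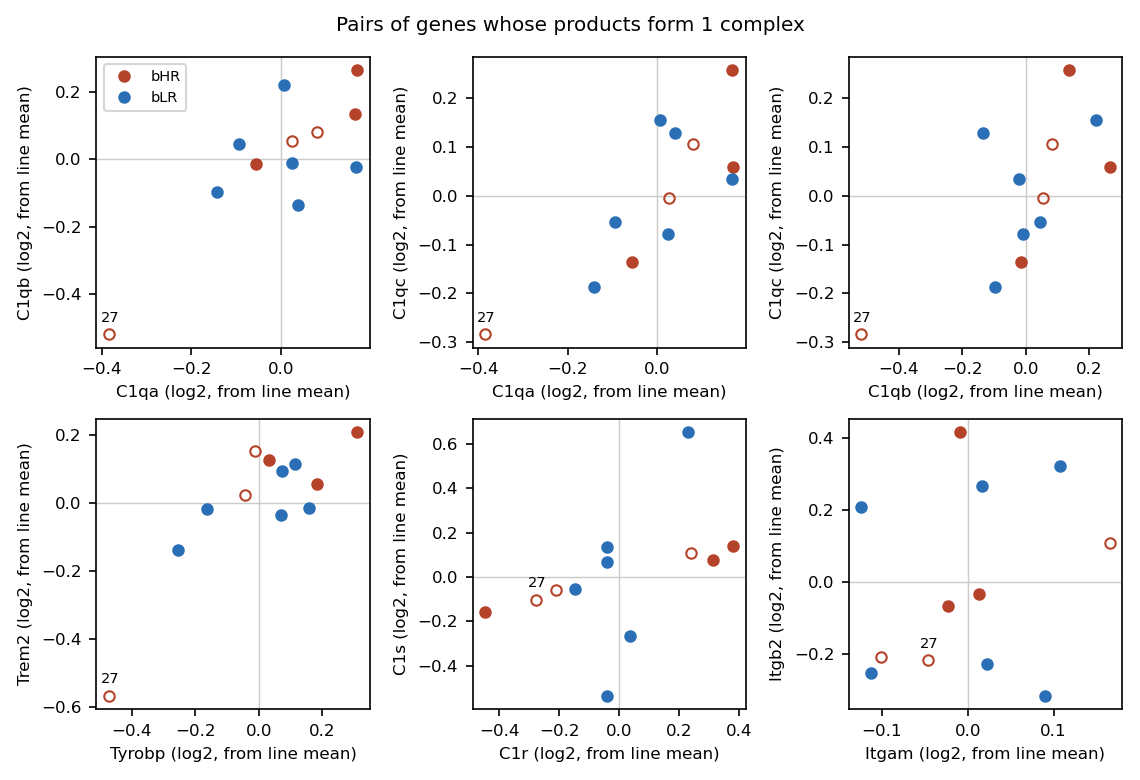
Log2 signal of 6 pairs of genes in each rat, as distance from the mean of its line. Red circles are bHR and blue circles bLR, open where the array was dim, and 27 marks bHR replicate 27. This rat lies at the lower left of the 3 C1q panels and of the panel for *Tyrobp* and *Trem2*, where r is 0.79, 0.81, 0.70 and 0.84.

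The promoters of *C1qa* and *C1qb*, chains of 1 complex, and of *Trem2* are shown as RefSeq gives them on the GRCr8 assembly, from 250 bases before to 50 bases after the start of the gene, 5′ to 3′ on the strand of the gene. PU.1, encoded by *Spi1*, is a transcription factor of the myeloid lineage that binds purine-rich sites, and capitals mark the letters GAGGAA or their reverse complement TTCCTC, searched on both strands. The *C1qa* promoter (chr5:154419884-154420183, minus strand) holds neither, the *C1qb* promoter (chr5:154407778-154408077, minus strand) holds them 2 times, and the *Trem2* promoter (chr9:20151730-20152029, minus strand) 1 time, 29 bases before the start.
*C1qa*: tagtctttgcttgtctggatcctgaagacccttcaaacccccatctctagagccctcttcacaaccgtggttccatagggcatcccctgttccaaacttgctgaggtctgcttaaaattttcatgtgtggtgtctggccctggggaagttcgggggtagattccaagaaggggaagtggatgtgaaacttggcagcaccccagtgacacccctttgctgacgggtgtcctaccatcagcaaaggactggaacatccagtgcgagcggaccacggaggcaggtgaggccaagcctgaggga
*C1qb*: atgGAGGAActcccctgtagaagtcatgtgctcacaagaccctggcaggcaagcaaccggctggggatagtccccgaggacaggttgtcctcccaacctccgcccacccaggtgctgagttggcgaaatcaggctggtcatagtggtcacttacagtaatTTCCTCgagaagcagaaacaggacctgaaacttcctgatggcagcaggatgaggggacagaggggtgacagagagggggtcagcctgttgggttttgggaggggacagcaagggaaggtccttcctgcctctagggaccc
*Trem2*: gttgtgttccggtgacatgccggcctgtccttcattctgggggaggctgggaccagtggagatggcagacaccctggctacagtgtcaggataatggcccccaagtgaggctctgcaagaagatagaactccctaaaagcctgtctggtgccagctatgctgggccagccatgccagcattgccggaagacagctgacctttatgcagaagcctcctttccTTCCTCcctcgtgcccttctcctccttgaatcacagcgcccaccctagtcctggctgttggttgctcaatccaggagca
Of the 29 genes, 17 had a promoter in the RefSeq table, and 10 of the 17 held the letters in these 300 bases, among them 6 of 7 microglial genes (*Cd68*, *Ctss*, *Laptm5*, *Mfge8*, *Ptprc* and *Trem2*, and not *Cx3cr1*). The letters were in 27.6% of all 33469 promoters given. The count describes letters in a window, in few genes, and shows no binding. *Spi1* itself, at a probe near the median signal, read 6.33, 6.66 and 6.81 in bHR rats, against 6.36, 6.71 and 6.94 in bLR rats (difference -0.07 ± 0.10; limma adjusted p = 0.95).

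Beyond the list, 33 of 39 other microglial genes were measured, 11 of them below the median signal in both lines. Unadjusted, 2 of 33 had p under 0.05, both with lower values in bHR, which is the share of all probes (6.02%). None passed over all probes. The difference was below 0 for 21 of 33, against 49.1% of all probes, with a median of -0.023. Of 24 genes for microglial ligands and for uptake of debris, 23 were measured, with 0 at an unadjusted p under 0.05 and a median of -0.030. Among the ligands, which like *Spi1* were named for their role and not by p, fractalkine (*Cx3cl1*, the partner of Cx3cr1) differed by +0.02 ± 0.10, and the 2 ligands of the Csf1 receptor by -0.08 ± 0.07 (*Csf1*) and +0.01 ± 0.07 (*Il34*), with limma adjusted p of 0.99, 0.92 and 0.996. The sign of *Il34* turned on the 9 brighter arrays, to -0.065.

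Markers of other cells that express complement or myeloid genes did not pass over all probes either. Border macrophage markers (7 of 10 measured) had a median of -0.049, with 0 at an unadjusted p under 0.05 and sums of 1064 to 1247 units in bHR and 1085 to 1690 units in bLR. All 7 had lower means in bHR, against 49.1% of all probes. On the 9 brighter arrays *Mrc1* and *F13a1* turned to +0.08 and +0.11, and the others stayed below 0. For neutrophil and monocyte markers (11 of 12) 4 had an unadjusted p under 0.05, against 6.02% of all probes, 1 with higher and 3 with lower values in bHR. The median was -0.011, with sums of 1063 to 1204 units in bHR and 1047 to 1251 units in bLR and 8 of 11 genes below the median signal. Of these, *Hp*, the plasma protein haptoglobin, differed by -0.20 ± 0.06 (limma adjusted p = 0.51) and *S100a8*, a calcium-binding protein of neutrophils, by -0.23 ± 0.07 (limma adjusted p = 0.56), while its partner *S100a9*, differed by +0.14 ± 0.05 (limma adjusted p = 0.73). The other of the 4 was *Ccr2*, a chemokine receptor of monocytes (-0.20 ± 0.08, limma adjusted p = 0.80), and it and *S100a9* were named after their values were seen. In the remaining lists the naming rule picked *Col3a1*, a fibrillar collagen of meninges (+0.97 ± 0.23, limma adjusted p = 0.24), *Sox9*, an astrocyte transcription factor (-0.21 ± 0.06, limma adjusted p = 0.38), *Prlr*, the prolactin receptor of choroid plexus (+0.20 ± 0.07, limma adjusted p = 0.63), and *Ahsp*, a haemoglobin chaperone measured under its older symbol *Eraf* (-0.71 ± 0.24, limma adjusted p = 0.65). Each was the only gene of its list at an unadjusted p under 0.05, against 6.02% of all probes. Means were lower in bHR for 4 of 9 meningeal genes (median +0.021) and 5 of 9 astrocyte genes (-0.005). They were lower for 3 of 10 choroid plexus genes (+0.11) and 4 of 5 erythroid genes (-0.17), against 49.1% of all probes. The same count was 5 of 7 for endothelial genes (-0.038), 4 of 9 for hippocampal neuron genes (+0.070) and 6 of 11 for neutrophil and monocyte genes. The part of these cell types in the values of the complement genes was not tested.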

How the data were processed

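Each rat gave 1 Illumina RatRef-12 array. Per the series' design text, the authors extracted the average signal with limma 3.28.21 and deposited it as linear intensity values, not normalised between arrays. They also deposited log2 values, quantile normalised with preprocessCore 1.34.0, per the same text. No source used here names a background correction.

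From the deposited intensities, log2 values were computed and the 12 arrays quantile normalised, which differed from the authors' log2 values by a median of 0.00037. Every one of the 22523 probes entered a linear model in limma 3.58.1 (R 4.3.3; lmFit, eBayes), with line as the only factor, two-sided p and Benjamini-Hochberg adjustment over all probes. Exact permutation tests used all 924 assignments of the 12 rats, and pair correlations 100000 permutations (scipy 1.17.1). The fit was tested on simulated arrays with independent normal values for each probe. These held no dim arrays, so that test does not cover the uneven brightness of the lines. Members were matched by symbol after removing a "_predicted" ending. Genes outside the list were also matched by a unique RefSeq (GRCr8) synonym that is no other gene's current symbol, with the brightest probe kept. Rat numbers are not shared between lines, so nothing was paired. The number of arrays limits the precision.

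The members and lists were chosen with earlier results of these data known, so no list p is given. By rule, values were given for members at an unadjusted p under 0.05 and for main genes of each role, and non-members were named at an unadjusted p under 0.01, except where the text says otherwise. Alternatives were other scalings, normexp with an offset of 50, the authors' values, a filter on dim probes, other variance models, brightness, and leaving out each rat. The mean of several probes was not needed, since each member had 1 probe.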

Additional observations from a re-analysis of the deposited data

Results flagged for a closer look

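A value was set aside for a closer look where its distance to the next value, as a share of the range of the 6 rats of its line, was above Dixon's 95% critical value. Of 58 groups of values (29 genes in 2 lines), 5 met this, where chance gives about 1 in 20 groups, and 3 of the 5 concern bHR replicate 27.

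That rat read 10.06 for *C1qb*, with the nearest bHR rat at 10.57, 10.64 for *Aif1* (nearest 11.43) and 9.27 for *Trem2* (nearest 9.86). The array was dim and had the lowest correlation with the others, and its part in these values was not tested. In bHR replicate 47, whose array was among the brighter ones, *Ctss* was low at 11.27 (nearest 11.85) and *Masp2* was high at 6.93 (nearest 6.52), at a probe near the median signal.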

How the results depend on the processing

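With limma, 0 of 29 genes passed at an adjusted p of 0.05 in each of the 22 alternatives, or 0 of 23 with the filter on dim probes. The 3 genes at an unadjusted p under 0.05 became 6 with arrays centred on their medians (24.3% of all probes), 17 without scaling (43.8%), and 0 on the 9 brighter arrays, with brightness as a block, or with mean log2 signal as a covariate. Leaving out 1 rat gave 2 to 7 genes, with 7 without bHR replicate 47 (8.22% of all probes). Without scaling 28 of 29 genes and 98.6% of all probes were lower in bHR, with a median of -0.22 over all probes, so signs in that setting follow a shift common to all probes.

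The median of components was -0.22 with arrays centred, -0.42 without scaling, +0.048 on the 9 brighter arrays, +0.045 with the brightness block and +0.046 with the covariate. For receptors it was -0.22 without scaling. Regulators gave -0.11 with arrays centred, -0.31 without scaling and +0.047 after the filter on dim probes, which left 4 of 6 genes. Microglial genes gave -0.25 with arrays centred, -0.45 without scaling and +0.042 on the 9 brighter arrays. *Cd59* reversed to -0.12 with arrays centred and to -0.32 without scaling. Among the 29 genes, none of them past the adjusted threshold, 14 changed sign on the 9 brighter arrays (12 of them to higher in bHR), 7 with arrays centred, *Cd59* included, and 5 without bHR replicate 27. No sign changed with normexp, the authors' values, the filter or the variance trend. The cause was not tested. Dim probes and 6 rats per line limit what differences could be seen.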
